A study of Homo sapiens with 4 samples.

Results

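Most genes described here place and keep the apical and basolateral faces of an epithelial cell, or carry membrane cargo to those faces. The exception is ADGRG1, an adhesion G protein-coupled receptor gene. The members are AP1M2, MYO5B, RAB25, CRB3, PARD6B, LLGL2, MAL2 and ADGRG1, 8 genes of the 20943 measured. They were chosen by symbol, with earlier results of these data known, and AP1M2 and MYO5B were selected from these data for their fall. Each is read by 1 probe set that carries no other symbol. RNA came from MCF10A, a non-tumorigenic human breast epithelial line, in 4 stable transfections hybridised to 1 array each. The transfections were Her2 with the H1047R variant of PIK3CA (written below as both), that variant alone (mutant PIK3CA), Her2 alone, and LacZ, a bacterial enzyme gene used as the control. Her2 is a receptor tyrosine kinase encoded by ERBB2, and PIK3CA is the catalytic subunit of a lipid kinase that acts downstream of such receptors. All 4 lines grew untreated in the same medium. The promoter that drives each introduced gene, and whether a line is 1 clone or a pool, do not appear in the labels.

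Values are deposited log2 expression values, so a difference of 1 is 2-fold. With 1 array per group there is no spread between replicates, no SD and no test, and every difference below compares 2 arrays. The 6 comparisons share these 4 arrays and are not independent. The array medians over 53617 probe sets lay between 1.13 and 1.17. The probe set that reads ERBB2, which carries 1 more symbol, went against the labels, at 7.39 on the array labelled both, 8.48 on that labelled mutant PIK3CA, 4.29 on that labelled Her2 and 5.96 on that labelled LacZ. Groups are therefore named as the arrays are labelled, and this doubt over the arrays labelled Her2 and mutant PIK3CA holds in every sentence below.

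In an epithelial sheet, protein modules divide the cell surface. The Crumbs module (CRB3 with the scaffolds PALS1 and PATJ) and the PAR module (PARD6B with PAR3, atypical protein kinase C and CDC42) act at the apical side and at the junctions. The Scribble module, to which LLGL2 belongs, acts at the basolateral side. Cargo reaches these domains along sorted routes. The adaptor AP-1 with the epithelial subunit encoded by AP1M2 sorts receptors to the basolateral membrane. RAB25, a relative of RAB11, and the motor MYO5B serve apical recycling endosomes, and MAL2 is a membrane protein of apical transcytosis. ADGRG1 encodes an adhesion G protein-coupled receptor. In mammary epithelium this order of the cell surface goes with gland structure, and genes of this kind are known as targets of repressors of the epithelial state.

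The sequence before the start sites of the members was read from RefSeq (GRCh38.p14). RefSeq listed 7 start sites for 5 of the 8 members, namely AP1M2, MYO5B, RAB25, CRB3 and ADGRG1. PARD6B, LLGL2 and MAL2 had no entry and were not searched. The 250 bases before each start were searched on both strands for the E-box CAGGTG, whose other strand reads CACCTG. This is the form that Snail and ZEB family repressors are known to bind. It occurred in 6 of the 7 windows and before at least 1 start of each of the 5 genes. Over all 35116 RefSeq windows of this length, 17.5% held it. The windows below are shown because they carry the E-box, 5′ to 3′ on the strand of the gene, with each match in capitals. They lie at chr19:10587313-10587562 (minus strand) for AP1M2, chr18:50195148-50195397 (minus strand) for MYO5B, chr1:156060910-156061159 (plus strand) for RAB25, chr19:6464021-6464270 (plus strand) for CRB3 and chr16:57619488-57619737 (plus strand) for the first listed start of ADGRG1.
AP1M2: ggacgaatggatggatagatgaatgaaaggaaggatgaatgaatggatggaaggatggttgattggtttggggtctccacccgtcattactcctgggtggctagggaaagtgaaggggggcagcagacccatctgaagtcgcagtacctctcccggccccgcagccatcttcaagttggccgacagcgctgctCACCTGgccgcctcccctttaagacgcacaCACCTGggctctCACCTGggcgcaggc
MYO5B: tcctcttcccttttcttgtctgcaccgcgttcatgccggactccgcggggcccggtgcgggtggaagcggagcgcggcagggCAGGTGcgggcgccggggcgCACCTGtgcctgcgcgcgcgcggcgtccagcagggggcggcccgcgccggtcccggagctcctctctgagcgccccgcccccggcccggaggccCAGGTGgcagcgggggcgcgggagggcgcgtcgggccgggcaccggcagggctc
RAB25: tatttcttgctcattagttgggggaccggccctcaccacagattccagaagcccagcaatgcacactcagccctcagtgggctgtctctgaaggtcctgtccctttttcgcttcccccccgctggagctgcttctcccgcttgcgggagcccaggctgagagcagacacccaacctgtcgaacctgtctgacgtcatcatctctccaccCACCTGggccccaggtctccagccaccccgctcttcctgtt
CRB3: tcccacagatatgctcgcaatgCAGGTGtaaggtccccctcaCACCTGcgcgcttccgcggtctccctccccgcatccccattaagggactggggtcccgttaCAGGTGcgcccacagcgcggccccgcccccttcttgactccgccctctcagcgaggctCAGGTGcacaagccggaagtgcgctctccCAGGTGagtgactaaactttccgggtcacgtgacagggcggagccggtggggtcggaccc
ADGRG1: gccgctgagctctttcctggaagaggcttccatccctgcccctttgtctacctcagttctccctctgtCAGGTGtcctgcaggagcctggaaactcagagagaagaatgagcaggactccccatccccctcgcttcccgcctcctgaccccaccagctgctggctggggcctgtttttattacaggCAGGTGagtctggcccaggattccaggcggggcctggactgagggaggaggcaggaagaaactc

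CRB3 had 5 matches, and AP1M2 and MYO5B had 3 each. Windows with 3 or more matches made up 0.464% of all windows (163 of them). In AP1M2 the matches began 57, 27 and 15 bases before the start, so all lay close to it. In MYO5B they began 168, 148 and 54 bases before the start, and in RAB25 the single match began 41 bases before it. The first and the second start of ADGRG1 had 2 matches each, and the third had 0. The Grainyhead-like core ACCGGT, bound by a family of epithelial activators, occurred in 0 of the 7 windows. It was rare in general (1.45% of all windows), so 0 of 7 does not set the members apart. Base composition did not set the members far apart, with a median of 63.6% G and C in their windows, against 58.0% over all windows and 65.2% over those of the counted genes defined below. A match describes these letters and is neither a bound site nor a cause.

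**Figure D1:**
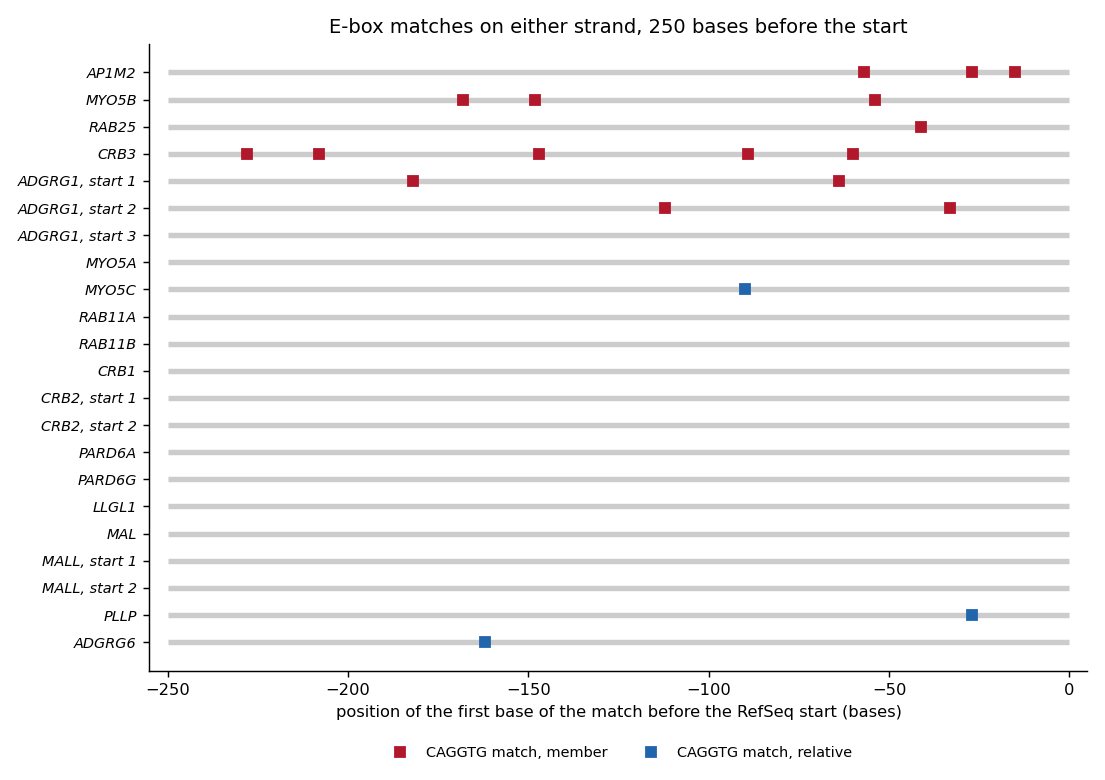
Position of E-box matches (CAGGTG on either strand, squares) in the 250 bases before each RefSeq start, for members (red) and their close relatives (blue); a grey bar is a window with an entry in the table. CRB3 has 5 matches, AP1M2 and MYO5B 3 each, and no window of a relative has more than 1.

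Every member had its lowest value on the array labelled both. This held for 8 of 8 members, against 30.8% of the 4313 counted genes. Counted genes are those, small RNAs aside, whose single-symbol probe set read 5 or higher on any array. Of the members, 6 pass this filter, and CRB3 and LLGL2 do not (highest values 4.43 and 4.85). The order LacZ above mutant PIK3CA above Her2 above both was found in 5 of 8 members (AP1M2, MYO5B, RAB25, LLGL2 and ADGRG1), against 7.44% of counted genes. Since AP1M2 and MYO5B were taken for their fall and the others with results known, these shares describe the members and support nothing further. In bulk RNA, fewer cells of a type and less RNA per cell cannot be told apart.

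**Figure D2:**
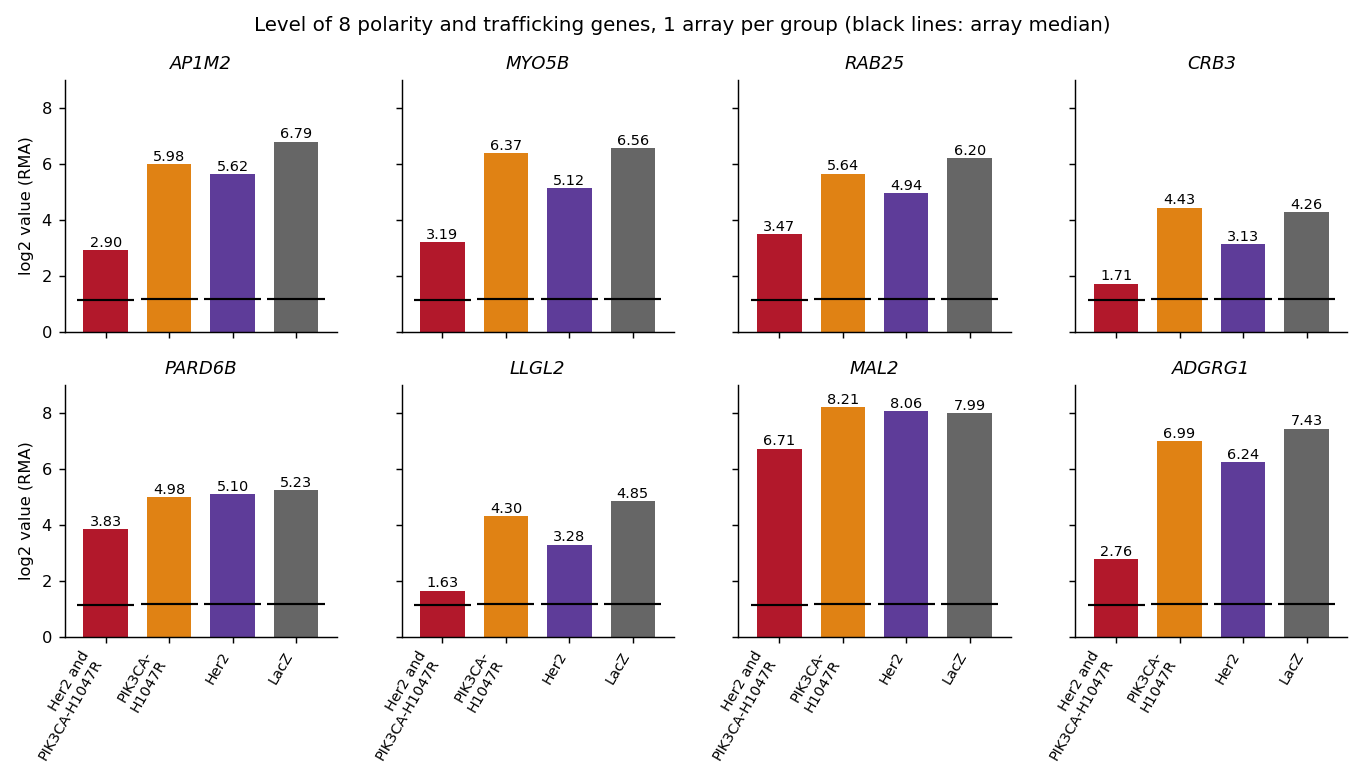
Level of the 8 members (log2 value, vertical axis from 0) on the arrays labelled both, mutant PIK3CA, Her2 and LacZ, 1 array each, with the median of all probe sets of that array as a black line. The bar of the array labelled both is the shortest in every panel, from 1.63 for LLGL2 to 6.71 for MAL2.

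Among the trafficking genes, AP1M2, the medium subunit of the epithelial AP-1 adaptor, read 2.90 on the array labelled both, 5.98 on that labelled mutant PIK3CA, 5.62 on that labelled Her2 and 6.79 on that labelled LacZ. The arrays of the single genes lay close together and the array of both lay well below them. The difference of both from LacZ was -3.89, a 14.8-fold lower level. Under quantile normalization it was -4.85 over the counted genes and -4.03 over all measured genes. MYO5B, the class V myosin of recycling endosomes, read 3.19 with both, 6.37 with mutant PIK3CA, 5.12 with Her2 and 6.56 with LacZ. Here the mutant PIK3CA array stayed next to the LacZ array (difference -0.19) while the Her2 array was lower than LacZ by 1.44 log2 units (a difference of -1.44). The difference of both from LacZ was -3.37, or 10.4-fold. RAB25, the epithelial member of the RAB11 family of small GTPases, read 3.47 with both, 5.64 with mutant PIK3CA, 4.94 with Her2 and 6.20 with LacZ. Its 4 arrays were spread more evenly than those of AP1M2, and both differed from LacZ by -2.72, or 6.61-fold. MAL2 read 6.71 with both, 8.21 with mutant PIK3CA, 8.06 with Her2 and 7.99 with LacZ. It stood apart from the other trafficking genes, since its single-gene arrays were no lower than LacZ and its difference of both from LacZ was -1.28, or 2.43-fold.

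Among the polarity genes, CRB3, the transmembrane anchor of the Crumbs module, read 1.71 with both, 4.43 with mutant PIK3CA, 3.13 with Her2 and 4.26 with LacZ. The mutant PIK3CA and LacZ arrays were side by side, the Her2 array was lower and the array of both lowest, with a difference of both from LacZ of -2.55. Under cyclic loess normalization of the counted genes that difference of CRB3 was -5.28, and under quantile normalization -3.29. Over all measured genes these normalizations gave -2.55 and -2.56. LLGL2, the homologue of the fly polarity protein Lethal giant larvae, read 1.63 with both, 4.30 with mutant PIK3CA, 3.28 with Her2 and 4.85 with LacZ. Both differed from LacZ by -3.21, against -5.68 under cyclic loess and -3.89 under quantile normalization of the counted genes. Over all measured genes LLGL2 differed by -3.22 and -3.24. On the array labelled both, 65.1% of all probe sets read below CRB3 and 63.7% below LLGL2, and both values lie near the array median of 1.13, so no fold is given for these genes. PARD6B, the PAR module adaptor that binds atypical protein kinase C and CDC42, read 3.83 with both, 4.98 with mutant PIK3CA, 5.10 with Her2 and 5.23 with LacZ. Its single-gene arrays were nearly level with LacZ, and both differed from LacZ by -1.40, or 2.63-fold.

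The member with the widest range was ADGRG1. It read 2.76 with both, 6.99 with mutant PIK3CA, 6.24 with Her2 and 7.43 with LacZ, a range of 4.66 log2 units. The mutant PIK3CA array lay nearest to LacZ (difference -0.44), the Her2 array was lower (-1.19), and the array of both lay far below all of them, at a 25.3-fold lower level than LacZ. On the array labelled LacZ 97.5% of all probe sets read below ADGRG1, and on that labelled both 76.1% did.

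Between the arrays labelled Her2 and LacZ, 6 of 8 members were lower by 2-fold or more and 0 of 8 higher by that much. Of the counted genes 2.57% were lower by 2-fold or more and 2.94% higher, and of all measured genes without the filter 1.67% were lower. AP1M2 and MYO5B were chosen with the Her2 comparisons in view, and of the other 6 members 4 were past 2-fold. The 6 members lay in a narrow band, from -1.57 for LLGL2 through -1.44 for MYO5B, -1.26 for RAB25, -1.19 for ADGRG1 and -1.17 for AP1M2 to -1.13 for CRB3. PARD6B (-0.13) and MAL2 (0.07) lay near 0. The median over the members was -1.18, against 0.02 over counted genes. All 8 members, these 6 among them, were lower by 2-fold or more on the array labelled both than on that labelled mutant PIK3CA. Thus 6 of 8 passed in both comparisons that add Her2, where 1.21% of counted genes did.

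Between the arrays labelled mutant PIK3CA and LacZ, 0 of 8 members were past 2-fold in either direction, where 4.08% of counted genes were lower and 7.07% higher by that much (1.93% of all measured genes were lower). The lowest were AP1M2 at -0.81, RAB25 at -0.56 and LLGL2 at -0.54, and the highest were MAL2 at 0.21 and CRB3 at 0.17. The member median was -0.34, against 0.07 over counted genes. Passing 2-fold in both comparisons that add mutant PIK3CA was thus seen in 0 of 8 members, where 1.16% of counted genes were lower in both. No spread is available to say whether such values differ from 0.

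Between the arrays labelled both and LacZ, 8 of 8 members were lower by 2-fold or more and 0 of 8 higher, where 11.1% of counted genes were lower and 13.8% higher (4.44% of all measured genes were lower). The values ran from -4.66 for ADGRG1 to -1.28 for MAL2, with a median of -2.97 over the 8 members, -2.64 without AP1M2 and MYO5B, and 0.04 over counted genes. All 8 also read lower by 2-fold or more with both than with mutant PIK3CA, where 8.90% of counted genes were lower (3.48% of all measured genes were lower), with a median of -2.69 and values from -4.23 for ADGRG1 to -1.15 for PARD6B. Against the array labelled Her2, 8 of 8 read lower by 2-fold or more with both, where 6.12% of counted genes were lower and 9.09% higher (2.64% of all measured genes were lower). That median was -1.55 and the values ran from -3.47 for ADGRG1 and -2.71 for AP1M2 to -1.26 for PARD6B. AP1M2 and MYO5B were selected on such differences, and all these comparisons share the array labelled both.

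The single-gene arrays were also set against each other. MYO5B (1.25), CRB3 (1.30) and LLGL2 (1.02) were at least 2-fold higher on the array labelled mutant PIK3CA than on that labelled Her2, where 6.14% of counted genes were. By the same measure 0 of 8 members were lower, where 3.69% of counted and 2.56% of all measured genes were. CRB3 (0.95 and 0.81) and LLGL2 (0.72 and 0.58) were under 2-fold after quantile and cyclic loess normalization of the counted genes, which left MYO5B. With all measured genes normalized, CRB3 (1.31 and 1.33) and LLGL2 (1.04 and 1.06) stayed past 2-fold. ADGRG1 differed by 0.75, RAB25 by 0.70, AP1M2 by 0.36, MAL2 by 0.15 and PARD6B by -0.11. If the Her2 and mutant PIK3CA labels were exchanged, these signs would turn and the 6 members lower on the array labelled Her2 would be counted under mutant PIK3CA. The values of the array labelled both against LacZ would not move.

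**Figure D3:**
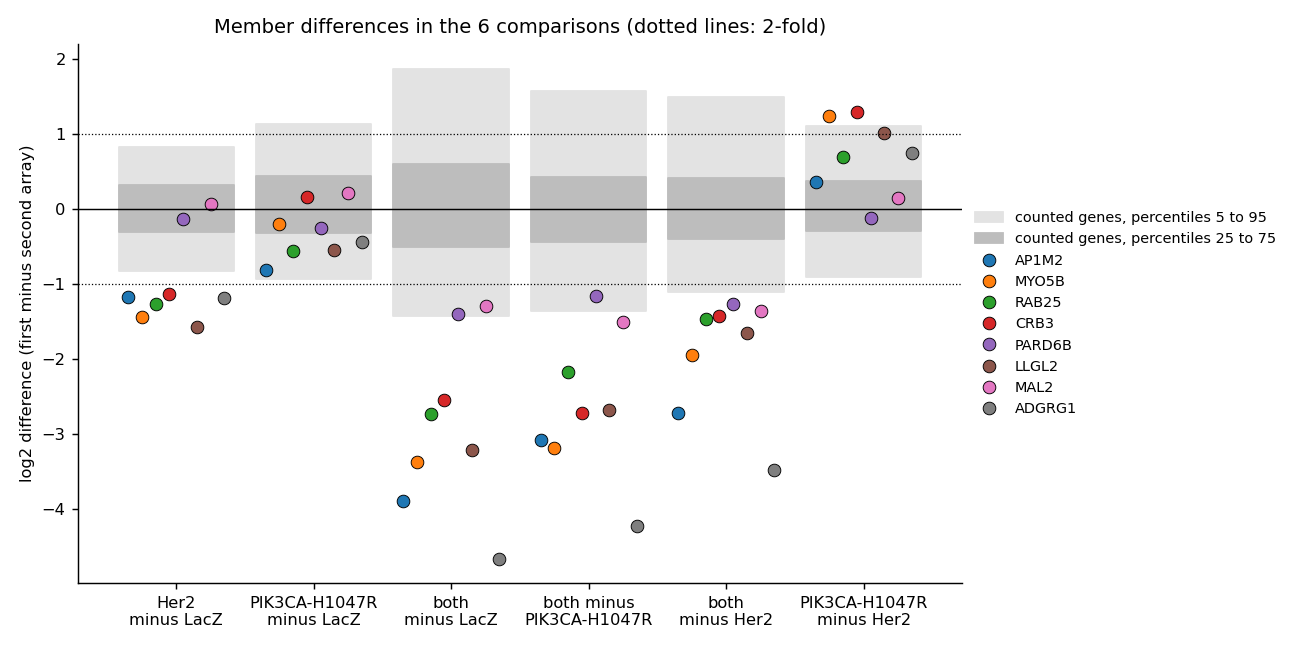
Log2 difference of each member (points, first minus second array named) in the 6 comparisons, over the spread of the 4313 counted genes (light grey percentiles 5 to 95, dark grey 25 to 75), with dotted lines at 2-fold. The members sit between -4.66 and -1.28 for both minus LacZ and between -0.81 and 0.21 for mutant PIK3CA minus LacZ.

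The differences of the single-gene arrays from LacZ did not add up to that of both. Adding them on the log2 scale, AP1M2 would read 4.81 on the array labelled both, and it read 2.90, a departure of -1.90. ADGRG1 would read 5.80 and read 2.76, a departure of -3.04, the largest of the members in the deposited values. Under cyclic loess normalization of the counted genes the departure of CRB3 (-3.55) was larger than that of ADGRG1 (-2.96). CRB3 itself lies below the filter of that set. MAL2 would read 8.27, above its LacZ value, and read 6.71, a departure of -1.57. The gene nearest to additivity was RAB25 at -0.91, and the departures of MYO5B (-1.75), CRB3 (-1.59), LLGL2 (-1.10) and PARD6B (-1.02) lay between. In all, 7 of 8 members had a departure of -1 or below, where 9.07% of counted and 4.35% of all measured genes did, and 0 of 8 had one of 1 or above, where 9.48% of counted genes did. The departure has no residual to test it with, and it holds the error of 4 single arrays.

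**Figure D4:**
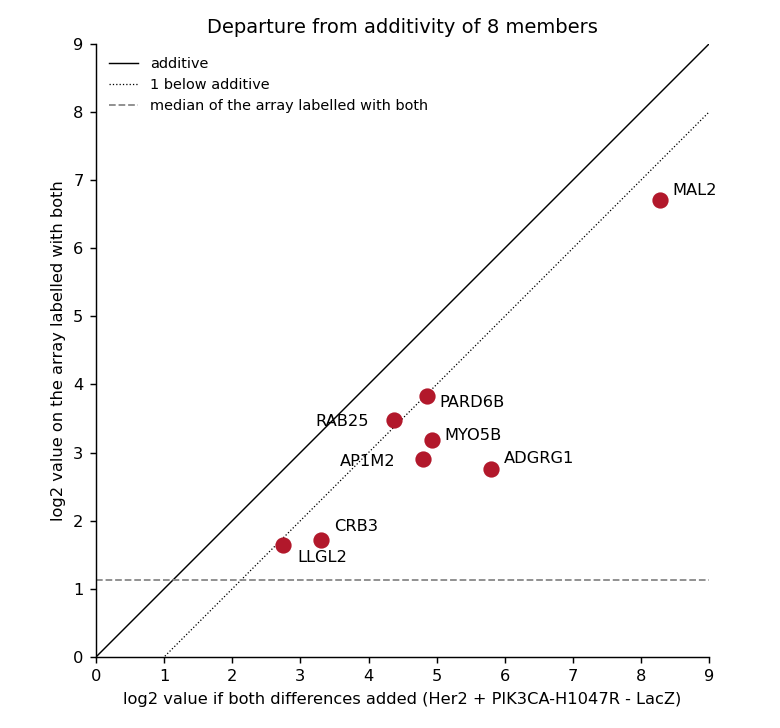
Log2 value on the array labelled both (vertical) against the value expected if the differences of the single-gene arrays from LacZ added up (horizontal), 1 point per member. All 8 points lie under the solid line of additivity and 7 lie under the dotted line 1 log2 unit below it, with ADGRG1 farthest at 2.76 against 5.80.

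The members fell into patterns that were compared as Euclidean distances between their 4 values, each centred on the mean of the gene. PARD6B and MAL2 were the nearest pair (0.34 log2 units) and shared the flat course over the arrays labelled mutant PIK3CA, Her2 and LacZ. MYO5B and LLGL2 (0.38) and RAB25 and LLGL2 (0.42) followed, with the step down on the array labelled Her2. ADGRG1 was nearest to AP1M2 (0.84) and farthest from PARD6B (2.59). Outside the members, the 10 counted genes nearest to the median pattern of the 6 counted members, of 4307 searched, lay at 0.24 to 0.48. They were B3GNT3, a glycosyltransferase, the keratin KRT15, the apical protrusion protein PROM2, the protease KLK5, JUP (plakoglobin), FAM83H, CDH3 (P-cadherin), PRAG1, CLDN7, a claudin of tight junctions, and SMOC1. The nearest to AP1M2 were PRSS8, a membrane-anchored serine protease, at 0.27, then KRT15, KLK5, SMOC1 and the protease inhibitor SPINT1. The nearest to ADGRG1 were CDH1 (E-cadherin) at 0.57, LSR of tricellular junctions at 0.60, then PRSS8, SPINT1 and SMOC1. Over 4 arrays many genes can share a pattern, and these distances only describe it.

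Each member has close relatives in the genome, and most of these differed by less than 2-fold between the arrays labelled both and LacZ. AP1M1, the general medium subunit of AP-1, read 4.93 with both, 4.39 with mutant PIK3CA, 4.03 with Her2 and 4.51 with LacZ. Its difference of both from LacZ was 0.42. MYO5A, a class V myosin of many tissues, differed by 0.67, while MYO5C, which is known from exocrine and other epithelial tissue, differed by -1.20. RAB11A, the general recycling GTPase, differed by 0.55 and its relative RAB11B by -0.95. LLGL1 differed by 0.09 where LLGL2 differed by -3.21. The relatives of MAL2 went the other way round, since PLLP (plasmolipin) differed by -3.16 and MALL by -2.33, both further than MAL2 itself. Of 9 relatives that read 3 or more on at least 1 array, 3 were lower by 2-fold or more with both than with LacZ. They were MYO5C, MALL and PLLP, beside 11.1% of counted and 4.44% of all measured genes, and 0 of the 9 were higher. Against the array labelled LacZ, 0 of these 9 were past 2-fold on that labelled Her2 and 1 was lower by 2-fold or more on that labelled mutant PIK3CA (PLLP, -1.14). CRB1, CRB2, PARD6A, PARD6G, MAL and ADGRG3 read below 3 on all arrays, and ADGRG6 differed by -0.11. In the promoter windows, 3 of 13 relatives with an entry held the E-box (MYO5C, PLLP and ADGRG6), each with 1 match. Over all windows 20.6% of genes held it.

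**Figure D5:**
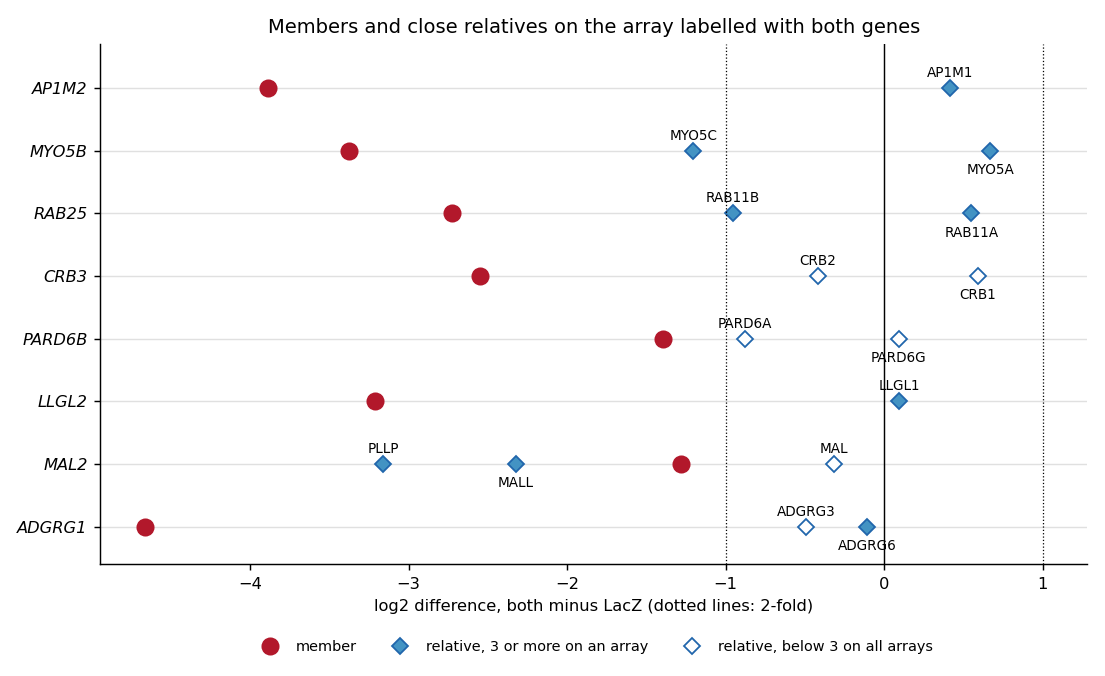
Log2 difference of the array labelled both from that labelled LacZ for each member (red circles) and its close relatives (blue diamonds, open where a relative read below 3 on all arrays), with dotted lines at 2-fold. Members lie left of their relatives in every row except that of MAL2 (-1.28), where PLLP (-3.16) and MALL (-2.33) are lower.

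The partners of the members were described from lists of the Crumbs, PAR and Scribble modules, PAR-1 kinases, AP-1 subunits, recycling endosome, apical delivery and exocyst genes. These hold 69 measured genes besides the members, of which 26 were counted. On the array labelled both, 4 of these 26 were lower than on LacZ by 2-fold or more and 3 higher, beside 11.1% and 13.8% of all counted genes, and the median was 0.22. Without the filter 9 of the 69 were lower and 5 higher, beside 4.44% of all measured genes lower and 1362 of 20943 higher. The 4 were PLLP at -3.16, PATJ, the Crumbs scaffold, at -1.24, MYO5C at -1.20 and MARK2, a PAR-1 kinase of the basolateral side, at -1.16. The 3 were RAB8B, a GTPase of polarized secretion, at 2.02, EXOC8, an exocyst subunit, at 1.30 and RAB11FIP2, an effector that links RAB11 to MYO5B, at 1.08. RAB11FIP2 and RAB8B were also at least 2-fold higher on each single-gene array than on LacZ (1.24 and 1.12 with mutant PIK3CA, 1.12 and 1.17 with Her2).

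Several partners in the modules of the members differed from LacZ by less than 2-fold. PALS1, which binds CRB3, read 4.96 with both and 4.29 with LacZ, a difference of 0.67. The partners of PARD6B differed by 0.26 (PARD3), 0.23 (PRKCI, atypical protein kinase C) and 0.59 (CDC42), and none of the 3 passed 2-fold in any comparison. The large AP-1 subunits AP1B1 and AP1G1, which share a complex with the product of AP1M2, differed by 0.27 and -0.29. Apart from these, DLG5 of the Scribble list differed by -0.24. SCRIB, below the filter, read 3.29 with both and 4.87 with LacZ, a difference of -1.58. Without replicates, a difference near 0 does not show an equal level.

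In the adhesion G protein-coupled receptor family, 5 genes besides ADGRG1 were counted, and 1 of them was at least 2-fold lower with both than with LacZ, where 11.1% of counted genes were. It was ADGRF1, which read 2.97 with both, 4.76 with mutant PIK3CA, 5.95 with Her2 and 5.83 with LacZ. Unlike ADGRG1 it was lower on the array labelled mutant PIK3CA (-1.07) and level on that labelled Her2 (0.12). Without the filter 3 of 28 other family genes were lower with both and 0 higher, beside 4.44% of all measured genes lower. Besides ADGRF1 they were ADGRL1 (-1.35) and ADGRE2 (-1.25). Among apical membrane genes, 2 of 5 counted were at least 2-fold lower with both (11.1% of all counted genes), PROM2 at -2.71 and MUC1, an apical mucin, at -1.32. Without the filter 3 of 19 were, with MUC16 at -1.39 added. The membrane linkers EZR (ezrin) and MSN (moesin) differed by -0.21 and 0.40.

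Some markers of cell identity moved with these results, and others did not. Of 15 measured epithelial markers, 4 read 5 or more on the array labelled both, 7 on mutant PIK3CA, 5 on Her2 and 8 on LacZ, and their summed log2 values were 54.9, 72.0, 65.5 and 72.3 in the same order. Of the 15, 8 were lower with both than with LacZ by 2-fold or more, beside 4.44% of all measured genes, and 1 was higher. The higher one was KRT14, below the filter, at 3.43 with both and 1.47 with LacZ. KRT5, the keratin of basal cells and of this line, read 7.14 with both and 7.27 with LacZ, while CDH1 read 5.07 with both and 9.34 with LacZ. Of 8 measured fibroblast markers, 3 read 5 or more with both (DPT, LUM and DCN), 0 with mutant PIK3CA, 2 with Her2 (DPT and FAP) and 0 with LacZ. Their summed log2 values were 28.9, 16.1, 21.0 and 14.8 in the same order. The defining fibroblast collagens COL1A1 (1.79 with both) and COL1A2 (0.84 with both) and the receptor PDGFRB (0.82 with both) read near the array median. The summed log2 values of the 5 endothelial markers lay between 6.01 and 8.74, and those of the 5 leukocyte markers between 10.2 and 10.8. Of the leukocyte list, CD68 alone reached 5 on any array. CD68 read 6.78 with both, 6.24 with mutant PIK3CA, 4.94 with Her2 and 4.68 with LacZ, a difference of both from LacZ of 2.10. PTPRC, the pan-leukocyte marker, read between 0.53 and 0.93 on the 4 arrays. The part of other cell types in the result was not tested.

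Factors of the Snail, ZEB and TWIST families were listed too. SNAI2 (Slug) read 9.81 with both, 9.74 with mutant PIK3CA, 9.77 with Her2 and 9.32 with LacZ, so it was high on all 4 arrays. ZEB1 stayed below the filter at 3.36 with both, 1.76 with mutant PIK3CA, 1.97 with Her2 and 1.08 with LacZ. Its difference of both from LacZ was 2.28. ZEB2 read 2.02 with both and 1.32 with LacZ, and SNAI1 read 1.66 with both and 1.51 with LacZ. TWIST1 read 5.22 with both, 3.99 with mutant PIK3CA, 5.84 with Her2 and 4.02 with LacZ. TWIST2 went the other way with both, at 1.89, against 1.32 with mutant PIK3CA, 2.16 with Her2 and 2.37 with LacZ. Of the 6 factors, 2 were at least 2-fold higher with both than with LacZ (ZEB1 and TWIST1) and 0 lower. Of all measured genes, 1362 of 20943 were higher by that much. Of the windows of counted genes at least 2-fold lower with both than with LacZ, 22.4% held the E-box (126 of 563), against 12.7% of the windows of the other counted genes (567 of 4463). These shares include the members, a gene can have several windows, and the part of these factors in the result was not tested.

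The genes next to the members on the chromosome were read as well. Of 32 measured neighbours (the nearest 2 on each side), 7 were counted, and 1 of these was at least 2-fold lower with both than with LacZ, where 11.1% of counted genes were. It was LIPG, near MYO5B, at -1.02. Also near MYO5B, MBD1 differed by -0.64 and ACAA2 by -0.07. SLC44A2, next to AP1M2, differed by -0.83. Near RAB25, UBQLN4 differed by -0.55 and LMNA by 0.31, and near PARD6B, ADNP differed by -0.01. No counted gene neighboured CRB3, LLGL2, MAL2 or ADGRG1. Without the filter 6 of the 32 were lower by 2-fold or more and 3 higher, beside 4.44% of all measured genes lower and 1362 of 20943 higher. Besides LIPG the lower ones were CASKIN2 (-1.97) and RECQL5 (-1.12) near LLGL2, RIPOR3 (-1.23) near PARD6B, DOK4 (-1.14) near ADGRG1 and SLC25A23 (-1.14) near CRB3. The higher ones were all near MAL2, namely ENPP2 (2.16), CCN3 (1.23) and TNFRSF11B (1.12). This set of neighbours was chosen after the values of the members were seen.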

How the data were processed

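RNA from 4 stable transfections of MCF10A was measured on 1 Affymetrix array each, from 400 ng of total RNA per the labels' protocols. The authors deposited log2 values per probe set. Per the submitters' processing notes, these come from the oligo package and RMA. Versions, probe set definition and filters were not given in the sources used here. Base 2 is taken from RMA's usual output, and the values span -0.77 to 12.35. The number of arrays limits the precision.

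Of 53617 probe sets, 23871 have 1 gene symbol in the platform annotation, 1842 several, and 27904 are unnamed here. Symbols were updated by gene identifier through the RefSeq table of GRCh38.p14, which changed 90. Where a gene had several probe sets, the one with the highest mean was used. A counted gene reached 5 on at least 1 array, which left 4313 of 20943 (small RNAs, ERBB2 and PIK3CA left out). Differences, counts past 2-fold and departures from additivity were computed with Python 3.11.15, pandas 2.3.3 and NumPy 2.4.6, and checked on simulated data with known answers. No test was possible. The members and lists were chosen with earlier results of these data known. Named genes were the members, their relatives, ERBB2, list genes past 2-fold and the genes nearest in pattern. The last were 10 for the median and 5 each for AP1M2 and ADGRG1. Binding partners, markers, factors of the Snail, ZEB and TWIST families, and neighbours were named after their values were seen. Promoter windows are RefSeq's. Alternatives were no filter, a filter at 7 or on the mean (4), a 1.5-fold threshold, the mean of all probe sets, and quantile or cyclic loess normalization (limma 3.58.1 in R 4.3.3, 3 iterations). Protein sequences were not used here.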

Additional observations from a re-analysis of the deposited data

Results flagged for a closer look

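CRB3 and MAL2 differed in opposite directions under the same introduced gene, depending on whether the other gene was present. With the mutant PIK3CA label, CRB3 differed by 0.17 from LacZ, and by -1.42 from Her2 when Her2 was present too. Under cyclic loess normalization of the counted genes the CRB3 values were -0.46 and -4.01, of 1 sign. Over all measured genes that normalization gave 0.22 and -1.44 for CRB3. For MAL2 the deposited values gave 0.21 and -1.35 in the same comparisons. With the Her2 label, MAL2 differed by 0.069 from LacZ, and by -1.50 from mutant PIK3CA when mutant PIK3CA was present too. Each value compares 1 array with 1 array, the first values lie near 0, and the difference between the effects was not tested.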

How the results depend on the processing

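No paired analysis was possible because each group has 1 array and the results come from no test. A member difference was taken as kept when it stayed on its side of 2-fold and, if past it, kept its sign. Each member has 1 probe set, so the mean over probe sets changed none of 48 differences. Normalizing the counted genes again moved 3 of 48 under quantile normalization and 3 under cyclic loess, all in CRB3 and LLGL2, which are below the filter, and turned 0 past 2-fold. Of the differences under 2-fold, 1 changed sign, CRB3 for mutant PIK3CA minus LacZ, which was -0.46 under cyclic loess. The largest shifts were in both minus LacZ, by -0.96 for AP1M2 under quantile normalization and by -2.73 for CRB3 under cyclic loess, where LLGL2 (-5.68) and CRB3 (-5.28) were lower than ADGRG1 (-4.68). CRB3 then differed by -0.92 for Her2 minus LacZ (quantile) and by 0.95 (quantile) and 0.81 (cyclic loess) for mutant PIK3CA minus Her2, where LLGL2 differed by 0.72 and 0.58. The departure of RAB25 became -1.62 under quantile normalization. Both normalizations run over all 20943 measured genes, chosen after seeing the data, moved 0 of 48, by at most 0.15. The count of members at least 2-fold lower for mutant PIK3CA minus LacZ was 0, against 1 under cyclic loess (LLGL2, -1.12) and 1 at 1.5-fold. With the labels of the single-gene arrays exchanged, also chosen after seeing the data, it was 6, that for Her2 minus LacZ was 0 in place of 6, and that for mutant PIK3CA minus Her2 was 3 in place of 0. Leaving out AP1M2 and MYO5B left 6 of 6 members past 2-fold in each of the 3 comparisons with the array labelled both. These 6 were also chosen with earlier results of these data known, so they are no independent set. The number of counted genes at least 2-fold lower for both minus LacZ was 479, against 930 without a filter, 152 with the filter at 7, 526 with a mean of at least 4, 949 at 1.5-fold, 573 under quantile normalization and 528 under cyclic loess. For Her2 minus LacZ it was 111, against 349, 26, 115, 470, 111 and 125. The median of the fibroblast markers rests on the filter: for both minus LacZ it was 4.39, against 0.24 without it, for both minus mutant PIK3CA 4.04 against 0.09, and for both minus Her2 1.98, turning to -0.13 without it.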
